A study of Mus musculus with 21 samples.

Results

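The genes described here belong to the Wnt pathway and to the primitive streak programme. They are the ligand Wnt3, the secreted inhibitor Dkk1, the feedback regulators Axin2 and Nkd1, the receptor Lgr5, the transcription factors Lef1, Tcf7 and Sp5, and the streak factors Mixl1 and Eomes. The 10 genes were chosen by name, and 9 of them were found among the 22512 genes of the deposited table. Lgr5 is not analysed here. Wnt3 was chosen because it moved differently in the Trim71 and Ago2 knockouts, so its knockout values are given as a description with no test, and it is left out of the counts of called genes in the knockout comparisons. Dkk1 was chosen as a known target of microRNAs of the miR-290 and miR-302 clusters, which abound in embryonic stem cells.

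In the canonical Wnt pathway a secreted ligand binds a Frizzled receptor with its co-receptor LRP, which keeps β-catenin from being degraded. β-catenin then enters the nucleus and, bound to TCF and LEF proteins, switches on target genes, and several of those targets feed back on the pathway as inhibitors. In the embryo the pathway induces the primitive streak, from which mesoderm and endoderm arise, and in embryonic stem cells it bears on self-renewal and on the exit from it. TRIM71 binds and represses mRNAs, AGO2 is an Argonaute protein that carries microRNAs, and TNRC6 (GW182) proteins are brought in by Argonaute to silence mRNAs.

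Total RNA of mouse embryonic stem cells was sequenced in 21 libraries, 3 for each of 7 groups, and the labels assign the groups to 2 experiments. All groups derive from a line of 129S6/SvEvTac background that carries the reporter GFP_5xT71BS and, by stable transfection, FLAG-Cas9. Experiment 1 compared this unedited line (W) with its Trim71-/- (Trim71KO) and Ago2-/- (Ago2KO) derivatives. In Experiment 2 unedited cells received a plasmid for T6B_WT, a peptide of TNRC6B that occupies Argonaute, fused to mCherry, or for its mutant T6B_MUT, while the Trim71-/- and Ago2-/- cells received an empty plasmid (Trim71KO_empty and Ago2KO_empty). No group of unedited cells had the empty plasmid, so T6B_MUT is the control of Experiment 2, and genotype and plasmid cannot be told apart in its knockout comparisons. The labels do not say whether an edited line is 1 clone. The series states that replicates are biological, and nothing ties a replicate to a separate clone, so p-values measure the spread between these cultures. Comparisons within an experiment share their control libraries.

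Depth per library was 29.6 M to 50.8 M counts (M, 1e6) in Experiment 1, and it was 33.9 M to 57.9 M counts in Experiment 2. Trim71 mRNA was lower but present in the Trim71-edited cells, at 429 ± 26.0 CPM (counts per 1e6 counts of the TMM-scaled library; SD, n = 3) in Trim71KO against 608 ± 9.26 in W. It stood at 402 ± 8.47 CPM in Trim71KO_empty against 492 ± 10.8 in T6B_MUT. Ago2 was at 41.9 ± 1.94 CPM in Ago2KO against 142 ± 9.62 in W. The libraries labelled Ago2KO_empty held 87.4 CPM of Ago2 in replicate 1, 167 in replicate 2 and 45.6 in replicate 3, against 123 ± 17.6 in T6B_MUT. Replicate 3 alone lay near the level of Ago2KO. The log2 fold change of −0.30 in the libraries labelled Ago2KO_empty was not called (edgeR quasi-likelihood, adjusted p 0.601). Directions drawn from these libraries carry that limit. Values without replicate 2 are given beside them for the genes described and for counts that move, and they still include replicate 1. All 8 markers of embryonic stem cells were present, and their summed level was higher in the Trim71-edited cells. It was 3708 to 4016 CPM in W and 4573 to 5035 in Trim71KO, and 3638 to 3770 CPM in T6B_MUT and 4492 to 4663 in Trim71KO_empty. Of the 8, 5 were called higher and 0 lower in Trim71KO, where 16.9% and 15.6% of all genes were. In Trim71KO_empty 5 were called higher and 1 lower, where 14.4% and 13.4% of all genes were. The 4 markers of formative epiblast, the state that follows naive pluripotency, summed to 264 to 275 CPM in W and 112 to 115 CPM in T6B_MUT. The part of these markers in the results was not tested.

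Because Argonaute and TNRC6 act through microRNAs, the microRNAs that share the seed named for Dkk1 are shown first, as RefSeq lists them, 5′ to 3′, with the seed (bases 2 to 8) in capitals. The first 5 microRNAs shown, members of the miR-290 and miR-302 clusters, share 1 seed.
mmu-miR-291a-3p: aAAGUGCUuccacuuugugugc
mmu-miR-294-3p: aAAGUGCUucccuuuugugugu
mmu-miR-295-3p: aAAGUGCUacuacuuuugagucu
mmu-miR-302b-3p: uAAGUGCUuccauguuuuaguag
mmu-miR-302d-3p: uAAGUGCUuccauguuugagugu
The first 3 lie on chromosome 7 and the other 2 on chromosome 3, and mmu-miR-290a-3p differs in the last base of its seed.
mmu-miR-290a-3p: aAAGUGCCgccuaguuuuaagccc

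The longest annotated 3′ UTR of each of the 9 genes was searched for the complement of the shared seed (AGCACTT) and for the complement of bases 2 to 7 followed by A (GCACTTA), and 4 genes held a match. The capitals mark it, in a stretch of GENCODE M21 transcript sequence written in the sense of the mRNA.
Dkk1, chr19:30546950-30546979, minus strand, build GRCm38: tcctcagtgtgGCACTTAcctgtaaatgca
Lef1, chr3:131224067-131224096, plus strand: gtaaaaagcccAGCACTTgaattgttcttt
Tcf7, chr11:52252449-52252478, minus strand: cctataaccccAGCACTTgcgagatagagg
Mixl1, chr1:180693400-180693429, minus strand: ccatttttcttAGCACTTgttattatgttt
The match lies at base 217 of the 1322-base 3′ UTR of Dkk1, and at base 1009 of 1287 in Lef1, 1416 of 1512 in Tcf7 and 1201 of 1576 in Mixl1. Of 14998 annotated 3′ UTRs of genes in the table, 17.5% held AGCACTT and 7.92% held GCACTTA, so that either match alone is common. A match describes the letters and not whether a site is used.

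In unedited W cells the 9 genes differed widely in level. On the deposited RPKM scale, which divides by gene length and therefore allows levels to be compared between genes, Tcf7 stood highest at 6.23 ± 0.575 RPKM (SD, n = 3), followed by Axin2 at 2.87 ± 0.252 RPKM. Eomes was at 0.715 ± 0.0173 RPKM. Lef1 (0.596 ± 0.0246 RPKM), Dkk1 (0.570 ± 0.0461 RPKM) and Sp5 (0.566 ± 0.162 RPKM) came next, and these neighbours in the order did not differ beyond their spread. Mixl1 (0.271 ± 0.0148 RPKM), Nkd1 (0.180 ± 0.0292 RPKM) and Wnt3 (0.0872 ± 0.0196 RPKM) were lowest. Of the genes in the table, 64.6% had a lower level than Tcf7 and 8.96% a lower level than Wnt3, so that Wnt3 was among the scarcest transcripts. This holds for Wnt3 and not for each Wnt ligand. The counts behind Wnt3, Dkk1, Lef1 in Experiment 2, and Sp5 are small, and each is given below.

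**Figure D1:**
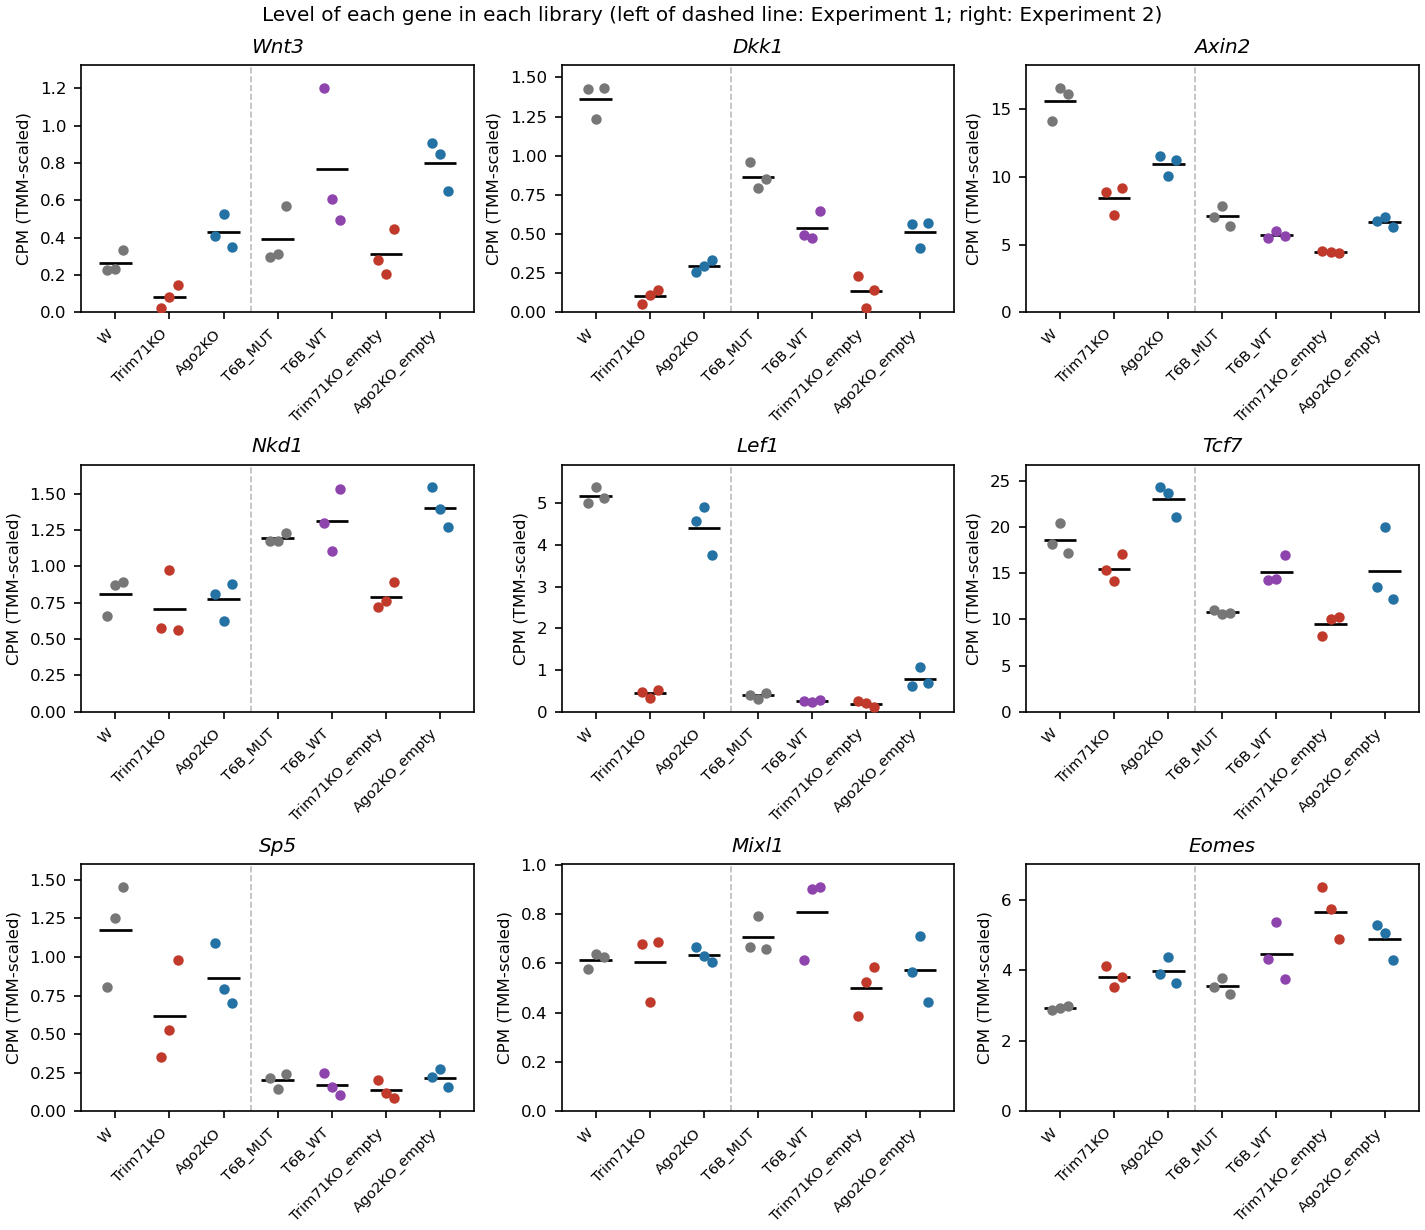
Level of each of the 9 genes in each library, in CPM (TMM-scaled within an experiment) on the vertical axis, by group on the horizontal axis, with 1 point per library and a line at the group mean. Dkk1 lies lower in every Trim71-edited and Ago2-edited library than in every unedited library of its experiment except those of T6B_WT, and Lef1 stands at 3.77 to 5.38 CPM in W and Ago2KO and at no more than 1.07 CPM in all other groups.

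Among the genes other than Wnt3, those that passed the test in the Trim71-edited cells were mostly lower and those in the libraries labelled Ago2KO_empty were higher. Calls rest on edgeR's quasi-likelihood test, with a false discovery rate (FDR, the p-value adjusted by Benjamini-Hochberg over all tested genes) under 0.05. In Trim71KO against W, 8 genes were tested, 4 were called lower (Dkk1, Lef1, Axin2, Tcf7) and 1 higher (Eomes), where 15.6% of all tested genes were called lower and 16.9% higher. Their median log2 fold change was −0.57, against 0.00 over all genes. In Ago2KO against W, 2 of 8 were called lower (Dkk1, Axin2) and 2 higher (Tcf7, Eomes), where 7.78% of all genes were lower and 10.2% higher, and the median was −0.14. Between the knockouts, 4 of 8 (Dkk1, Axin2, Lef1, Tcf7) were called lower in Trim71KO than in Ago2KO and 0 higher, where 34.2% of all genes were called in either direction. At an unadjusted p under 0.05 the count higher was also 0, and DESeq2 called 4 genes in all.

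In Experiment 2, Sp5 did not pass the filter on low counts. In Trim71KO_empty against T6B_MUT, calls were made for 3 of 7 genes as lower (Dkk1, Axin2, Nkd1) and for 1 as higher (Eomes), where 13.4% of all genes were lower and 14.4% higher, and the median was −0.60. In the libraries labelled Ago2KO_empty against T6B_MUT, 3 of 7 were called higher (Lef1, Tcf7, Eomes) and 0 lower, where 16.4% of all genes were higher and 12.4% lower, and the median was 0.23. At an unadjusted p under 0.05, 1 gene was lower there, and DESeq2 called 3 in all. Without replicate 2 of the libraries labelled Ago2KO_empty the count was 0, as it was without T6B_MUT replicate 1. Without T6B_MUT replicate 2 or 3 it was 1. Between both edited groups, 5 of 7 genes (Dkk1, Axin2, Lef1, Tcf7, Nkd1) were called lower in Trim71KO_empty and 0 higher, where 31.6% of all genes were called, and no further gene passed an unadjusted p under 0.05 or by DESeq2. These 5 calls also stood without replicate 2 of the libraries labelled Ago2KO_empty.

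The T6B peptide moved few of these genes past the test. In T6B_WT against T6B_MUT, 1 of 8 genes, Wnt3 included, was called higher (Tcf7) and 0 lower, where 9.29% of all genes were called higher and 6.69% lower, and the median was 0.17. At an unadjusted p under 0.05, 3 were higher and 2 lower, and DESeq2 called 1. Effects were also compared with each other across all 21 libraries, with 8 genes tested in each contrast. For the Trim71 effect in Experiment 2 minus that in Experiment 1, 1 gene was called (Lef1), where 10.1% of all genes were. For the Ago2 effect in Experiment 2 minus Experiment 1, 1 was called (Lef1), where 2.13% of all were. For the T6B effect minus the Ago2KO effect, 1 was called (Dkk1), where 3.16% of all were.

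**Figure D2:**
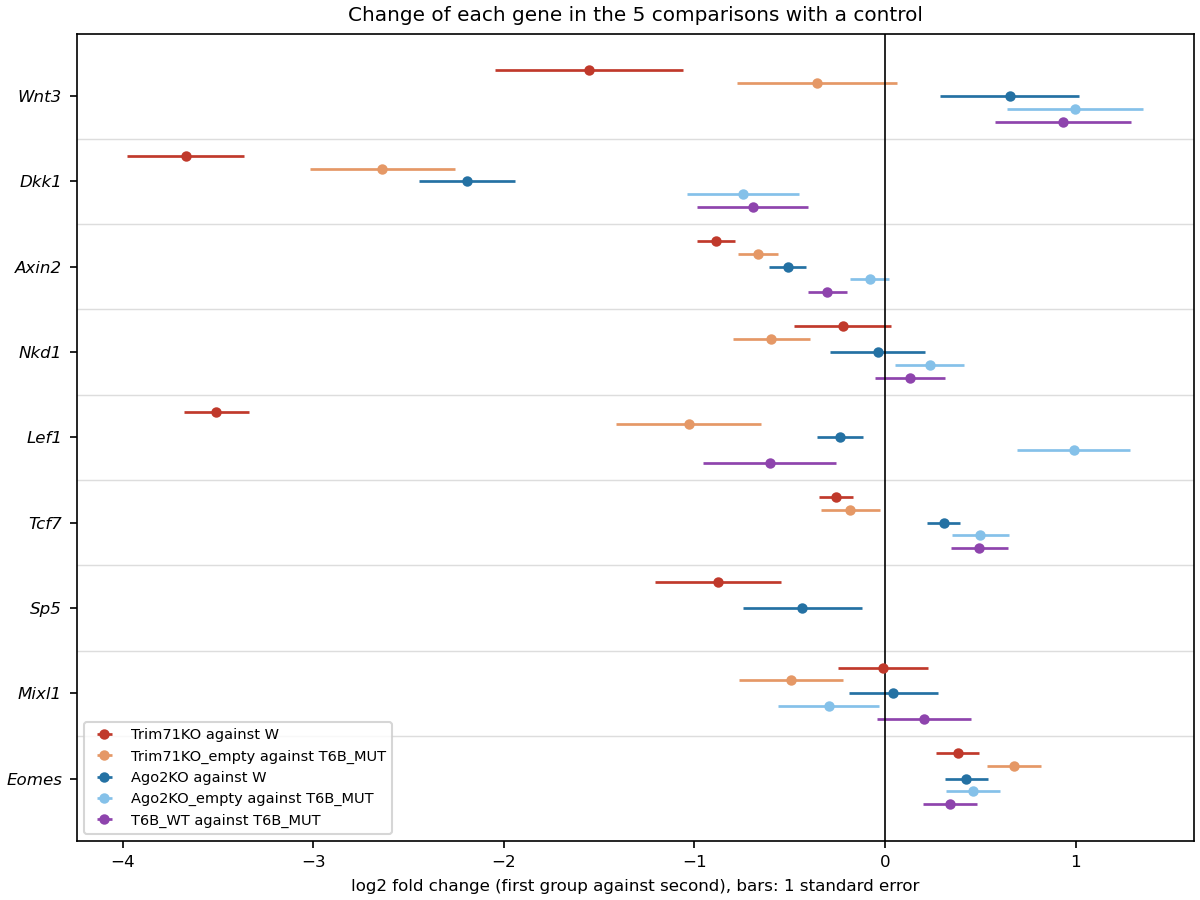
Log2 fold change of each gene in the 5 comparisons with a control, on the horizontal axis, with bars of 1 standard error, 1 colour per comparison. The points of Dkk1 and Axin2 lie left of 0 in all 5 comparisons, those of Eomes lie right of 0 in all 5, and Sp5 has no points in Experiment 2.

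Wnt3 is a ligand of the canonical pathway and is required in the embryo to form the primitive streak (ENSMUSG00000000125, chr11:103774150-103817957, plus strand, GENCODE M21). Its counts were 11, 11 and 16 in the W libraries, 1, 3 and 7 in Trim71KO, and 19, 16 and 18 in Ago2KO, which came to 0.227, 0.234 and 0.333 CPM, to 0.0251, 0.0834 and 0.146 CPM, and to 0.407, 0.528 and 0.352 CPM. The 3 groups did not overlap, with Trim71KO below W and Ago2KO above it. These values chose the gene. The log2 fold changes were −1.55 (SE 0.49) in Trim71KO and 0.65 (SE 0.37) in Ago2KO, and without Trim71KO replicate 3 the former was −2.27. In Experiment 2 the counts were 15, 13 and 33 in T6B_MUT (0.294, 0.312 and 0.572 CPM) and 11, 7 and 16 in Trim71KO_empty (0.283, 0.204 and 0.447 CPM), which overlap. The libraries labelled Ago2KO_empty gave 37, 31 and 25 counts (0.907, 0.848 and 0.649 CPM), each above every T6B_MUT library. The log2 fold changes were −0.36 (SE 0.42) and 1.00 (SE 0.36), and the latter was 0.94 without replicate 2. With T6B_WT the counts were 49, 27 and 19 (1.20, 0.609 and 0.494 CPM), and replicate 3 lay within the range of T6B_MUT. The T6B comparison was not used to choose Wnt3, and its change of 0.94 (SE 0.36) did not pass (FDR 0.0844, edgeR quasi-likelihood). It passed without T6B_WT replicate 3 (1.15, FDR 0.0490) or without T6B_MUT replicate 3 (1.33, FDR 0.0451).

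Dkk1 is a secreted inhibitor that binds the LRP co-receptors and so keeps Wnt ligands from signalling (ENSMUSG00000024868, chr19:30545863-30549665, minus strand). Its counts were 69, 58 and 69 in W, 2, 4 and 7 in Trim71KO, and 12, 9 and 17 in Ago2KO. On the CPM scale W stood at 1.43, 1.23 and 1.43, Trim71KO at 0.0502, 0.111 and 0.146, and Ago2KO at 0.257, 0.297 and 0.332, so that all 3 groups were apart. Dkk1 fell by 3.67 on the log2 scale in Trim71KO (SE 0.31, FDR 5.43e-07) and by 2.19 in Ago2KO (SE 0.25, FDR 3.04e-05), both by edgeR quasi-likelihood. It was lower in Trim71KO than in Ago2KO, with a log2 fold change of −1.48 (SE 0.40, FDR 0.00937).

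In Experiment 2, T6B_MUT gave 49, 33 and 49 counts of Dkk1 (0.962, 0.791 and 0.849 CPM) and Trim71KO_empty 9, 1 and 5 (0.232, 0.0292 and 0.140 CPM). No Trim71KO_empty library came near the control, and the log2 fold change was −2.64 (SE 0.38, FDR 4.08e-05, edgeR quasi-likelihood). T6B_WT gave 20, 21 and 25 counts (0.491, 0.474 and 0.650 CPM), and the libraries labelled Ago2KO_empty 23, 15 and 22 (0.564, 0.411 and 0.571 CPM). Both groups lay below every T6B_MUT library, but neither passed the test. The log2 fold changes were −0.69 (SE 0.29, FDR 0.119) for T6B_WT and −0.75 (SE 0.30, FDR 0.0650) for the libraries labelled Ago2KO_empty (−0.63, FDR 0.164, without replicate 2), and both passed when only the groups compared were fitted (FDR 0.0361 and 0.0426). The T6B effect on Dkk1 was smaller than that of Ago2 loss in Experiment 1, a difference of 1.50 (SE 0.39, FDR 0.0297, edgeR quasi-likelihood). This call was lost in 8 of the 12 fits that each left out 1 library, with an FDR of up to 0.106 without T6B_WT replicate 3, and it held without W replicate 2, T6B_MUT replicate 1, or T6B_WT replicate 1 or 2. The Ago2 effect in Experiment 2 minus that in Experiment 1 was 1.44 (SE 0.40, FDR 0.0537), and it passed without replicate 2 of the libraries labelled Ago2KO_empty (1.58, FDR 0.0406). The Trim71 effect in Experiment 2 minus that in Experiment 1 was 1.03 (SE 0.58, FDR 0.296) and was not called.

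Primitive endoderm is the extraembryonic lineage that arises beside the epiblast and that can form in stem cell cultures. The summed level of its markers was lower in each group in which Dkk1 was lower than in the control. All 6 markers (Gata4, Gata6, Sox17, Sox7, Pdgfra, Dab2) were in the table and none was at 0. Their summed level was 36.0 to 38.7 CPM in the W libraries, 5.83 to 5.97 in Trim71KO and 9.79 to 11.4 in Ago2KO. In Experiment 2 it was 24.9 to 25.7 CPM in T6B_MUT, 20.4 to 23.7 in T6B_WT, 10.02 to 11.7 in Trim71KO_empty and 16.1 to 22.7 in the libraries labelled Ago2KO_empty. Of the 6 markers, 5 were called lower in Trim71KO, all 6 in Ago2KO, 5 in Trim71KO_empty (where Sox7 was higher), 3 in the libraries labelled Ago2KO_empty and 1 in T6B_WT. The part of these markers in the Dkk1 result was not tested, and in bulk RNA fewer cells of a type cannot be told apart from less RNA per cell.

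**Figure D3:**
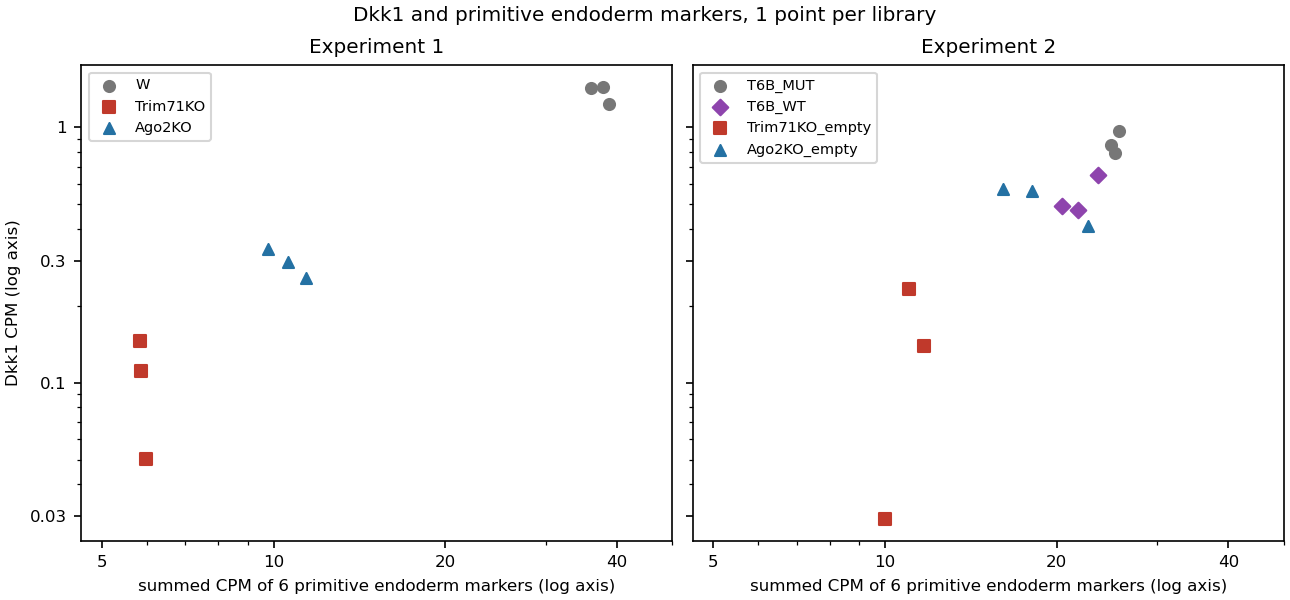
Level of Dkk1 in CPM (vertical, log axis) against the summed CPM of 6 primitive endoderm markers (horizontal, log axis), 1 point per library, with a panel for each experiment. The unedited W and T6B_MUT libraries lie at the upper right of their panels, the Trim71-edited libraries at the lower left, and the T6B_WT libraries at 20.4 to 23.7 CPM of the markers.

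The genes whose pattern was most like that of Dkk1 over the 21 libraries, with log2 CPM centred within each experiment and 12688 genes compared, were Pdgfra (Pearson r = 0.91), Cubn (0.90) and Gata4 (0.90). Those most like Wnt3 were Smad6 (0.90), Cog1 (0.89) and Pink1 (0.88). For Axin2 they were Cenpa, Dusp4 and Prelid1, each at 0.91. For Mixl1, whose own level varied little between groups, the highest r were 0.82 (Gm47692), 0.81 (Ppp1r26) and 0.79 (Lamp3). These values describe libraries that share groups and carry no test.

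Axin2 is a scaffold of the complex that degrades β-catenin and a widely used read-out of canonical Wnt signalling, since β-catenin induces it (ENSMUSG00000000142, chr11:108920349-108950783, plus strand, overlapped by Gm11670 on the opposite strand). It stood at 14.1, 16.6 and 16.1 CPM in W, at 8.89, 7.23 and 9.15 CPM in Trim71KO and at 11.5, 10.04 and 11.2 CPM in Ago2KO. All 3 groups were apart. Axin2 fell by 0.89 on the log2 scale in Trim71KO (SE 0.10, FDR 9.36e-06) and by 0.51 in Ago2KO (SE 0.10, FDR 0.00201), and Trim71KO lay below Ago2KO by a log2 fold change of −0.38 (SE 0.10, FDR 0.00970), all by edgeR quasi-likelihood. In Experiment 2 it stood at 7.03, 7.84 and 6.37 CPM in T6B_MUT and 4.50, 4.44 and 4.41 CPM in Trim71KO_empty, which did not overlap (log2 fold change −0.67, SE 0.11, FDR 1.21e-04, edgeR quasi-likelihood). The libraries labelled Ago2KO_empty, at 6.72, 7.03 and 6.31 CPM, overlapped the control (−0.08, SE 0.10, FDR 0.595, and −0.13, FDR 0.436, without replicate 2). T6B_WT, at 5.53, 6.002 and 5.64 CPM, lay just under every control library, with a log2 fold change of −0.30 (SE 0.10, FDR 0.0526) that missed the threshold. It passed in 4 of the 12 other fits, with the 2 groups alone (FDR 0.0261), without T6B_MUT replicate 3 (0.0355), with the filter on CPM (0.0470) and with no filter (0.0488), and the FDR reached 0.205 without T6B_MUT replicate 2. The Ago2 effect did not pass the test of its difference between the experiments (0.42, SE 0.14, FDR 0.127).

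Nkd1 is another target and feedback inhibitor, which binds Dishevelled (ENSMUSG00000031661, chr8:88521354-88594884, plus strand, overlapped by Gm45496 on the same strand). In Experiment 1 its 9 libraries ran from 0.562 to 0.973 CPM with overlap among all 3 groups, and it was not called in Trim71KO (log2 fold change −0.22, SE 0.26, FDR 0.551) or Ago2KO (−0.04, SE 0.25, FDR 0.940). In Experiment 2, Trim71KO_empty stood at 0.720, 0.759 and 0.893 CPM, below T6B_MUT at 1.18, 1.17 and 1.23 CPM. There Nkd1 fell by 0.60 on the log2 scale (SE 0.20, FDR 0.0324, edgeR quasi-likelihood). The call did not hold with DESeq2 (FDR 0.0699) or in 5 of the 6 fits that each left out 1 library. The FDR reached 0.115 without Trim71KO_empty replicate 1, and only without Trim71KO_empty replicate 3 did the call hold. The 1060 tested genes of chromosome 8 had a median of 0.19 for the log2 fold change in Trim71KO against W and, over 1053 genes, 0.09 in Trim71KO_empty against T6B_MUT. Their part in the values of Nkd1, and in those of Sfrp1 on the same chromosome (below), was not tested.

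Lef1 is a DNA-binding partner of β-catenin and itself a target of the pathway (ENSMUSG00000027985, chr3:131110471-131224356, plus strand, overlapped by Gm42449 on the same strand and Gm43352 on the opposite strand). In Experiment 1 it gave 242, 253 and 246 counts in W, 19, 12 and 25 in Trim71KO, and 213, 149 and 193 in Ago2KO. On the CPM scale these were 5.00, 5.38 and 5.12, then 0.477, 0.334 and 0.520, then 4.56, 4.92 and 3.77, so that Trim71KO stood far below both other groups. Lef1 fell by 3.51 on the log2 scale in Trim71KO (SE 0.17, FDR 2.90e-09, edgeR quasi-likelihood). In Ago2KO, although each library lay below every W library, the change of −0.24 (SE 0.12, FDR 0.211) missed the threshold. Trim71KO against Ago2KO gave −3.27 (SE 0.18, FDR 4.83e-09).

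In Experiment 2 the level of Lef1 in the control was 0.391 ± 0.0716 CPM, against 5.17 ± 0.197 CPM in W, and 3.27% of the genes in the table had a lower RPKM than Lef1 in T6B_MUT. Levels were not tested across the experiments. T6B_MUT gave 21, 13 and 26 counts (0.412, 0.312 and 0.450 CPM), T6B_WT 11, 10 and 11 (0.270, 0.226 and 0.286 CPM), Trim71KO_empty 10, 7 and 4 (0.257, 0.204 and 0.112 CPM), and the libraries labelled Ago2KO_empty 25, 39 and 27 (0.613, 1.07 and 0.701 CPM). The libraries labelled Ago2KO_empty lay above the control and both other groups below it. Only the rise passed, at a log2 fold change of 0.99 (SE 0.30, FDR 0.0182, edgeR quasi-likelihood). It was lost without T6B_MUT replicate 1 (1.00, FDR 0.0571), T6B_MUT replicate 2 (0.85, FDR 0.0759) or replicate 2 of the libraries labelled Ago2KO_empty (0.71, FDR 0.127). Trim71KO_empty gave −1.03 (SE 0.38, FDR 0.0504), at the edge of the threshold. It passed in 4 of the 11 other fits, with the 2 groups alone (FDR 0.0425), with no filter (0.0486), without T6B_MUT replicate 2 (0.0487) and with RLE size factors (0.0492), and the FDR reached 0.174 without Trim71KO_empty replicate 3. T6B_WT gave −0.60 (SE 0.35, FDR 0.277). Trim71KO_empty against the libraries labelled Ago2KO_empty gave −2.02 (SE 0.36, FDR 2.39e-04), or −1.75 (FDR 0.00167) without replicate 2 of the latter. The effects on Lef1 differed between the experiments, by 2.48 for Trim71 (SE 0.44, FDR 4.52e-04) and by 1.21 for Ago2 (SE 0.29, FDR 0.0215), both by edgeR quasi-likelihood. The latter was lost without Ago2KO replicate 3 (FDR 0.0586), T6B_MUT replicate 1 (0.0586) or 2 (0.0779), or replicate 2 of the libraries labelled Ago2KO_empty (0.95, FDR 0.0989).

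Tcf7 encodes TCF1, which also binds DNA with β-catenin and is the most abundant of the 9 mRNAs per length (ENSMUSG00000000782, chr11:52252371-52283014, minus strand, overlapped by Gm26551 on the same strand and A630014C17Rik on the opposite strand). Its levels were 18.2, 20.4 and 17.1 CPM in W, 15.3, 14.1 and 17.04 CPM in Trim71KO, and 24.3, 23.6 and 21.1 CPM in Ago2KO. Trim71KO lay below W and Ago2KO above it, in each case with a small gap. Tcf7 fell by 0.26 on the log2 scale in Trim71KO (SE 0.09, FDR 0.0364) and rose by 0.31 in Ago2KO (SE 0.09, FDR 0.0217), by edgeR quasi-likelihood. The first call was lost without W replicate 2 (FDR 0.177), Trim71KO replicate 1 (0.106) or Trim71KO replicate 2 (0.146). The other was lost without W replicate 1 (0.0520) or 3 (0.111), or without Ago2KO replicate 1 (0.0875) or 2 (0.0722). The direct difference between the knockouts, at −0.57 (SE 0.09, FDR 1.47e-04, edgeR quasi-likelihood), held in the 12 other fits run, but it did not reach the fold-change threshold of 1.

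With T6B_WT, Tcf7 stood at 14.2, 14.4 and 16.9 CPM against 11.1, 10.6 and 10.7 CPM in T6B_MUT, with no overlap. The log2 fold change was 0.49 (SE 0.15, FDR 0.0367, edgeR quasi-likelihood), and each of the 6 fits that left out 1 library lost the call, with an FDR from 0.0543 without T6B_WT replicate 2 to 0.129 without T6B_WT replicate 3. The libraries labelled Ago2KO_empty stood at 13.5, 20.04 and 12.2 CPM, and replicate 2, the library with the most Ago2, was highest. Their log2 fold change of 0.50 (SE 0.15, FDR 0.0225) was 0.24 (FDR 0.111) without that library, and it was also lost without T6B_MUT replicate 1 (0.0549), 2 (0.0642) or 3 (0.0688). Trim71KO_empty, at 8.23, 10.1 and 10.2 CPM, gave −0.18 (SE 0.15, FDR 0.417). Against the libraries labelled Ago2KO_empty it gave −0.68 (SE 0.15, FDR 0.00348, edgeR quasi-likelihood), or −0.43 (FDR 0.00510) without their replicate 2.

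Sp5 is a zinc-finger factor and a direct target of β-catenin with TCF and LEF (ENSMUSG00000075304, chr2:70474923-70477729, plus strand). Its counts were 39, 59 and 70 in W, 14, 19 and 47 in Trim71KO, and 51, 24 and 36 in Ago2KO. The groups overlapped, and replicate 3 stood apart within Trim71KO at 0.978 CPM against 0.351 and 0.528 CPM. The log2 fold change in Trim71KO was −0.88 (SE 0.33, FDR 0.0561, edgeR quasi-likelihood). It was −1.42 (FDR 0.00378) without Trim71KO replicate 3 and −1.09 (FDR 0.0173) without W replicate 1, and DESeq2 gave an FDR of 0.0393. Ago2KO gave −0.44 (SE 0.31, FDR 0.391). In Experiment 2 the libraries held 3 to 14 counts of Sp5, or 0.0837 to 0.274 CPM, too few to pass the filter, so that no difference was tested within that experiment.

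The promoters of the genes were searched for the core of the TCF and LEF motif, CTTTGA or its complement TCAAAG, from 250 bases before to 50 bases after each start site that RefSeq lists on GRCm38.p6. Among 32851 such windows, 16% held 1 or more matches and 1.73% held at least 2. Sp5, Dkk1 and an internal start of Lef1 each held 2, and the stretches that hold them are shown with the matches in capitals.
Sp5, chr2:70474709-70474834, plus strand: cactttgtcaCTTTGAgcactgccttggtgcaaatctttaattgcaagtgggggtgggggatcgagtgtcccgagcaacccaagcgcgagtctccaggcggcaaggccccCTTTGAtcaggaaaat
Lef1, chr3:131156104-131156189, plus strand: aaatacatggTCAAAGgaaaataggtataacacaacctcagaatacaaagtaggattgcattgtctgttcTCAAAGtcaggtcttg
Dkk1, chr19:30549598-30549680, minus strand: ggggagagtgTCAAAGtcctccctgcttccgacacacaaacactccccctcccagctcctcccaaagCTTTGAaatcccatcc
The matches began 204 and 104 bases before the RefSeq start of Sp5, 180 and 120 before that of Lef1, and 174 and 117 before that of Dkk1. On the minus strand, the GENCODE M21 span of Dkk1 begins at 30549665, within the stretch shown. By that annotation, part of the Dkk1 stretch lies inside the gene. These letters were not found in the windows of Wnt3, Axin2, Nkd1, Eomes and Tcf7 or in the other 3 of Lef1. The only window of Nkd1, chr8:88527383-88527682, lies inside its GENCODE M21 span, which begins at 88521354. The first annotated bases of Nkd1 were therefore not searched. A match is not a measured binding site, and none was tested here.

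Mixl1 is a homeobox factor of the streak and of early mesendoderm (ENSMUSG00000026497, chr1:180693043-180697034, minus strand). It ran from 0.445 to 0.687 CPM in Experiment 1, and the W libraries, at 0.578, 0.638 and 0.624 CPM, lay within the range of Trim71KO. It was not called in any comparison. The log2 fold changes were −0.01 (SE 0.24) in Trim71KO, 0.04 (SE 0.23) in Ago2KO, 0.20 (SE 0.25) in T6B_WT, −0.50 (SE 0.27) in Trim71KO_empty and −0.30 (SE 0.26) in the libraries labelled Ago2KO_empty, with an FDR of 0.192 or more by edgeR quasi-likelihood. The last was −0.49 without replicate 2, and also not called.

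Eomes is a T-box factor of the streak and of trophoblast, and it was higher in each edited group (ENSMUSG00000032446, chr9:118478212-118486132, plus strand, overlapped by Gm33460 on the opposite strand). It stood at 2.87, 2.94 and 2.99 CPM in W, 4.12, 3.53 and 3.81 CPM in Trim71KO and 3.90, 4.39 and 3.63 CPM in Ago2KO. Each edited library lay above every W library, and the edited groups overlapped each other. The rise was 0.38 (SE 0.11, FDR 0.0189) in Trim71KO and 0.43 (SE 0.11, FDR 0.0170) in Ago2KO on the log2 scale, by edgeR quasi-likelihood. The former was lost without W replicate 2 (FDR 0.0549) or Trim71KO replicate 1 (0.0863), the latter without W replicate 2 (0.0566) or Ago2KO replicate 2 (0.0741). In Experiment 2 it stood at 3.53, 3.79 and 3.34 CPM in T6B_MUT, 6.38, 5.75 and 4.88 CPM in Trim71KO_empty and 5.30, 5.06 and 4.29 CPM in the libraries labelled Ago2KO_empty. All edited libraries were again above the control. Trim71KO_empty gave 0.68 (SE 0.14, FDR 0.00145), and the libraries labelled Ago2KO_empty 0.46 (SE 0.14, FDR 0.0219), by edgeR quasi-likelihood. The latter call was lost without T6B_MUT replicate 1 (0.0753) or 3 (0.0996), or without replicate 1 (0.111) or 2 (0.0583) of the libraries labelled Ago2KO_empty. T6B_WT, at 4.32, 5.37 and 3.74 CPM, overlapped the control (0.34, SE 0.14, FDR 0.121). Summed trophoblast markers were low in all libraries, at 0.33 to 1.32 CPM.

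The rest of the pathway was described with 7 lists of other Wnt and streak genes, 91 of which were in the table. In Trim71KO against W, 20 of the 85 genes tested passed as higher and 26 as lower, where over all genes 16.9% were higher and 15.6% lower. In Ago2KO 14 were higher and 8 lower, against 10.2% and 7.78% of all genes. In Experiment 2, with 87 tested, the counts were 16 higher and 14 lower in Trim71KO_empty, where 14.4% and 13.4% of all genes were called, and 18 and 6 in T6B_WT, where 9.29% and 6.69% were. In the libraries labelled Ago2KO_empty they were 19 and 6, against 16.4% and 12.4%. The 26 lower in Trim71KO and the 18 higher in T6B_WT stood furthest above the share over all genes, and the other counts lay nearer to it or below it. The single lists are small, so that their counts are a description read against the same percentages. Many moved by over 1.5 times when 1 library was left out, and such ranges are given as the number called in either direction. Over the 7 lists together the median log2 fold change was 0.03 in Trim71KO, 0.07 in Ago2KO and 0.00 in Trim71KO_empty. It was 0.10 in T6B_WT and 0.18 in the libraries labelled Ago2KO_empty.

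Of 12 tested ligands and secretion factors, 5 were called lower in Trim71KO and 1 higher, where 15.6% and 16.9% of all genes were (list median −0.43). Wnt7b fell from 4.52 ± 0.260 to 0.859 ± 0.127 CPM (log2 fold change −2.38, SE 0.17, FDR 7.62e-08, edgeR quasi-likelihood), Wnt5a by 0.66 on the log2 scale, and Porcn, the enzyme that attaches the lipid to Wnt proteins, by 0.52. Wls, the carrier of Wnt proteins to the cell surface, rose by 0.65. In Trim71KO_empty, 4 of 13 were higher and 1 lower, against 14.4% and 13.4% of all genes, with Wnt10a up by 1.71, Wnt6 by 1.45 and Wls by 0.79, and Porcn again lower (−0.80). Wnt5a, a ligand best known for signalling without β-catenin, rose in Ago2KO (0.72), in T6B_WT (1.04) and in the libraries labelled Ago2KO_empty (1.85, or 1.73 without replicate 2). In all, 3 of 12 were higher and 1 lower in Ago2KO, 3 of 13 higher in T6B_WT and 4 of 13 higher in the libraries labelled Ago2KO_empty, where 10.2%, 9.29% and 16.4% of all genes were higher and 7.78% were lower in Ago2KO. The 4 calls in Ago2KO became 1 without W replicate 3 or Ago2KO replicate 1, and 2 without W replicate 2 or Ago2KO replicate 2 or 3.

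The next list held inhibitors other than Dkk1 that are secreted or, like Kremen2 and Apcdd1, bound to the membrane. Those called in Ago2KO, T6B_WT and the libraries labelled Ago2KO_empty were higher. In Ago2KO 5 of 9 were called higher, in T6B_WT 6 of 10 and in the libraries labelled Ago2KO_empty 5 of 10, with 0 lower in each. Over all genes 10.2%, 9.29% and 16.4% were called higher and 7.78%, 6.69% and 12.4% lower. With so few genes tested, 0 lower says little against these shares. While the counts in Ago2KO (4 to 6) and T6B_WT (5 to 6) moved little with 1 library left out, the 5 calls in the libraries labelled Ago2KO_empty became 2 without any 1 of the T6B_MUT replicates or without their own replicate 1, and 3 without replicate 2 or with the 2 groups fitted alone. At an unadjusted p under 0.05 the lower ones numbered 1, 0 and 0 in these comparisons. DESeq2 called 5, 6 and 4 of them. Notum, an enzyme that removes the lipid from Wnt proteins and is itself a target of β-catenin, rose from 13.5 ± 0.939 CPM in W to 32.4 ± 3.96 in Ago2KO (log2 fold change 1.27), and from 12.3 ± 1.51 CPM in T6B_MUT to 34.2 ± 2.698 in T6B_WT (1.48) and 26.5 ± 0.990 in the libraries labelled Ago2KO_empty (1.11, with or without replicate 2). Apcdd1 rose in Ago2KO (0.59) and T6B_WT (1.05), and Sfrp2 in T6B_WT (0.91). In Trim71KO, 3 of 9 were higher and 2 lower, against 16.9% and 15.6% of all genes, and the 5 calls became 3 without Trim71KO replicate 1. Sfrp1 rose there from 74.1 ± 0.608 to 216 ± 7.58 CPM (1.55) and Dkk3, a relative of Dkk1, from 3.64 ± 0.264 to 12.5 ± 0.386 CPM (1.78), while Kremen2 fell (−1.04). In Trim71KO_empty 3 of 10 were higher, among them Dkk3 (0.93), and 1 was lower, against 14.4% and 13.4%.

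Of 20 receptors and members of the R-spondin axis, 8 were called higher and 7 lower in Trim71KO, where 16.9% and 15.6% of all genes were, and 6 and 6 in Trim71KO_empty, where 14.4% and 13.4% were. Fzd6 rose in Trim71KO (1.11). Fzd2 fell in Trim71KO (−0.73) and in Trim71KO_empty (−1.51), Rspo1 fell in both (−0.98 and −0.89), and Lgr6 rose in both (0.59 and 0.77). Fzd7 fell from 142 ± 5.38 CPM in T6B_MUT to 86.7 ± 1.16 in Trim71KO_empty (−0.71). The counts were 1 higher and 3 lower in Ago2KO (10.2% and 7.78% of all genes), 3 and 1 in T6B_WT (9.29% and 6.69%), and 1 and 2 in the libraries labelled Ago2KO_empty (16.4% and 12.4%). These 3 moved with single libraries. The 4 calls in Ago2KO became 1 without W replicate 2 or Ago2KO replicate 3 and 2 without W replicate 3. The 4 in T6B_WT became 2 without T6B_WT replicate 2 or any 1 of the T6B_MUT replicates, and 7 with the 2 groups fitted alone. The 3 in the libraries labelled Ago2KO_empty became 1 without replicate 1, 6 without replicate 2 and 5 without replicate 3.

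Of 18 cytoplasmic components, 6 were higher and 2 lower in Trim71KO (16.9% and 15.6% of all genes), 3 and 1 in Ago2KO (10.2% and 7.78%), 2 and 2 in Trim71KO_empty (14.4% and 13.4%), 1 and 3 in T6B_WT (9.29% and 6.69%), and 5 and 3 in the libraries labelled Ago2KO_empty (16.4% and 12.4%). The calls moved with single libraries in all 5. The 8 in Trim71KO became 4 without Trim71KO replicate 1 and 5 without W replicate 2, and the 4 in Ago2KO became 2 without W replicate 2 or 3 or Ago2KO replicate 2. The 4 in Trim71KO_empty became 2 without T6B_MUT replicate 2 or 3 or Trim71KO_empty replicate 1 and 7 with the 2 groups fitted alone, and the 4 in T6B_WT became 1 without T6B_WT replicate 2 or 3 or T6B_MUT replicate 1 or 2. The 8 in the libraries labelled Ago2KO_empty ran from 3 without T6B_MUT replicate 2 to 10 without their own replicate 3, with 4 without T6B_MUT replicate 1 or their own replicate 1, and 5 without T6B_MUT replicate 3 or their own replicate 2. The count of 8 was 3 with the 2 groups fitted alone and 5 with the replicate block. In these libraries Apc, a scaffold of the complex that degrades β-catenin, rose by 0.68 and Tnks, an enzyme that marks AXIN for degradation, by 0.80. Without replicate 2 Apc stood at 0.49 (FDR 0.0122) and Tnks at 0.42 (FDR 0.0714). Of 10 TCF factors and cofactors, 2 were higher and 2 lower in Trim71KO, 1 and 0 in Ago2KO, and 1 and 1 in each of the 3 other comparisons, counts too small to read against the percentages above. In the libraries labelled Ago2KO_empty they ran from 1 gene in all to 5 (without replicate 3), in T6B_WT from 0 (without T6B_MUT replicate 1) to 2, and in Ago2KO from 0 (without W replicate 3 or Ago2KO replicate 3) to 1. In Trim71KO_empty they were 1 without its replicate 1 and 4 with the 2 groups fitted alone. Bcl9l fell in Trim71KO (−0.53), and Pygo1 rose in Ago2KO (0.68) and T6B_WT (0.53) and fell in Trim71KO_empty (−0.62).

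Among further target genes of β-catenin, 7 of 11 were called lower in Trim71KO and 2 higher, where 15.6% and 16.9% of all genes were (list median −0.57). Ascl2 fell by 1.48 on the log2 scale and Myc by 0.57, from 55.5 ± 4.42 to 37.4 ± 4.96 CPM. In Trim71KO_empty 4 of 12 were lower and 1 higher, against 13.4% and 14.4% of all genes, and Ccnd1, which encodes cyclin D1, fell from 106 ± 0.770 to 50.7 ± 11.9 CPM (−1.07). In Ago2KO 2 of 11 were higher and 2 lower, against 10.2% and 7.78%, and Myc again was lower (−0.51). In T6B_WT 4 of 12 were higher and 1 lower, against 9.29% and 6.69% (list median 0.37), with Ccnd1 higher (0.74) and Myc lower (−0.68). In the libraries labelled Ago2KO_empty 3 of 12 were higher and 0 lower, against 16.4% and 12.4%. The 5 calls in T6B_WT became 3 without T6B_WT replicate 1 or T6B_MUT replicate 1 or 3, and the 3 in the libraries labelled Ago2KO_empty became 1 without T6B_MUT replicate 1 and 5 with the replicate block. Notum and other feedback genes stand on this list as well as on those above.

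Of 10 further streak and mesendoderm genes, 3 were called lower in Trim71KO and 0 higher, where 15.6% and 16.9% of all genes were. In Ago2KO 2 were called lower and 0 higher, where 7.78% and 10.2% of all genes were. With so few genes tested, 0 higher says little against these shares. At an unadjusted p under 0.05 the higher ones numbered 0 and 1. With a CPM over 1 in 3 libraries as the filter, the counts called in either direction were 1 and 1. The list median of the log2 fold change was −0.13 in Trim71KO and 0.34 in Ago2KO, so the list as a whole did not fall in Ago2KO. Of the 4 markers of formative epiblast, 3 were called lower in Trim71KO and 3 in Ago2KO, where 15.6% and 7.78% of all genes were. In Experiment 2, 3 of these markers were tested. There 1 was lower and 0 higher in Trim71KO_empty, where 13.4% and 14.4% of all genes were. In the libraries labelled Ago2KO_empty 1 was lower and 1 higher, where 12.4% and 16.4% of all genes were. These markers summed to 264 to 275 CPM in W, 183 to 192 in Trim71KO and 229 to 240 in Ago2KO. Their part in the result was not tested. Nodal, the ligand that acts with Wnt in forming the streak, fell from 48.6 ± 3.12 to 24.7 ± 0.937 CPM in Trim71KO (log2 fold change −0.97). In Trim71KO_empty it was at 44.5 ± 3.54 CPM against 43.4 ± 0.602 in T6B_MUT, and 0 of 9 genes were called. At an unadjusted p under 0.05, 1 of the 9 was lower, and DESeq2 called 0. In T6B_WT 2 of 9 were higher (9.29% of all genes), and 1 without T6B_WT replicate 3 or any 1 of the T6B_MUT replicates. In the libraries labelled Ago2KO_empty 1 was (16.4%), and 2 without replicate 3. Genes named from the lists had an FDR under 0.05 by edgeR quasi-likelihood in the comparisons given. Some of these calls were lost when 1 library was left out. They were those of Wnt5a (FDR up to 0.144), Lgr6 (0.201) and Kremen2 (0.0715) in Trim71KO, of Wnt5a (0.0947) and Pygo1 (0.122) in Ago2KO, of Wnt5a (0.0624) and Pygo1 (0.0858) in T6B_WT, and of Tnks (0.138) in the libraries labelled Ago2KO_empty. Apc there was lost with the 2 groups fitted alone (0.0549).

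**Figure D4:**
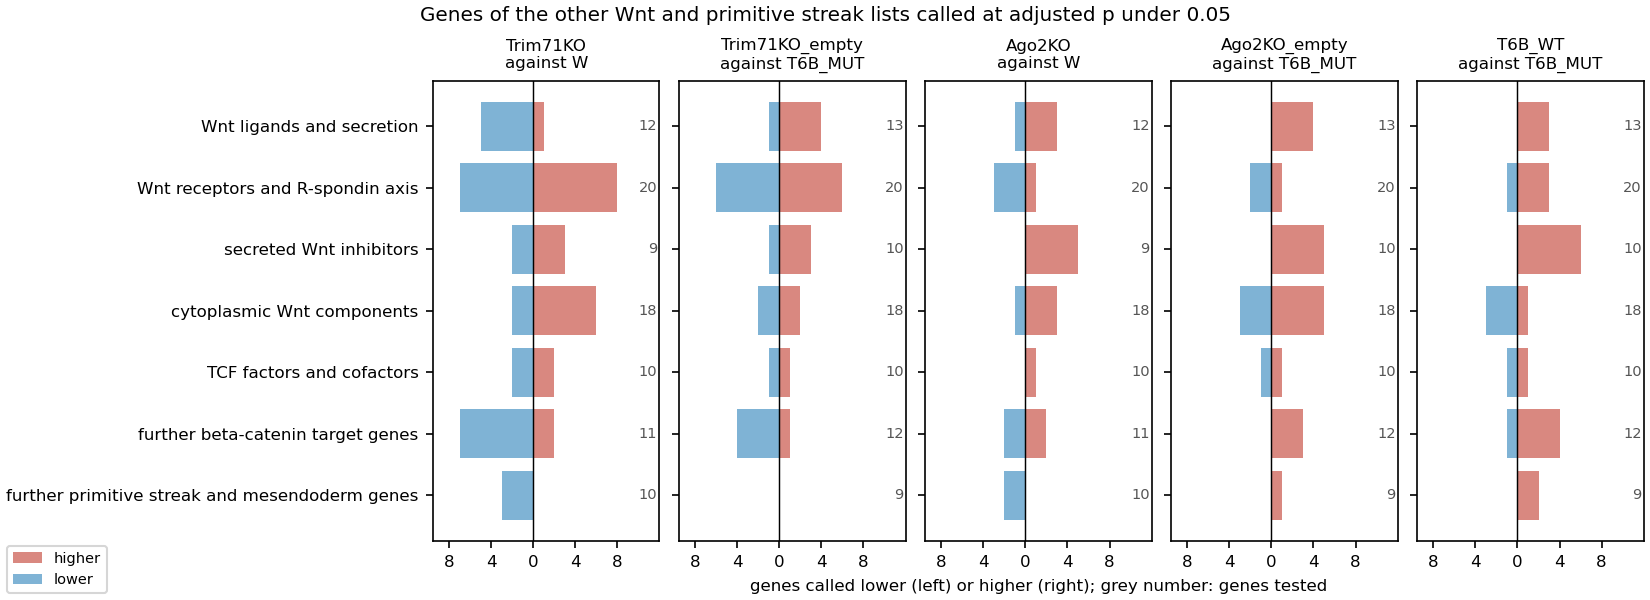
Number of genes called lower (left of 0) or higher (right of 0) at an FDR under 0.05 in each of 7 lists of other Wnt and streak genes, with a panel for each comparison with a control and the number tested in grey. The bars labelled secreted Wnt inhibitors, a list that also holds membrane-bound ones, reach 5 or 6 to the right in Ago2KO, the libraries labelled Ago2KO_empty and T6B_WT. Those of further target genes reach 7 to the left in Trim71KO.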

How the data were processed

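The authors deposited raw read counts and RPKM values for 22512 genes in 21 libraries, per the file headers. Per the submitters' processing notes, the tools were bcl2fastq 2.17 and STAR 2.7.3a and the build GRCm38 (mm10). Whether counting used strand is not given in the sources used here, so genes that overlap another are uncertain. The table gave no symbol for 4789 rows, and 22492 rows had one after matching Ensembl IDs. Column totals of raw counts served as depth, and RPKM only to compare levels between genes.

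Counts were tested with edgeR 4.0.16 in R 4.3.3 (TMM, filterByExpr with a minimum count of 10, robust quasi-likelihood, Benjamini-Hochberg adjustment over all genes tested), with the 9 libraries of Experiment 1, the 12 of Experiment 2 or all 21 in a fit. This left 21210, 21505 and 22258 genes. Log2 fold changes are edgeR's, and the standard error is that change divided by the root of F. Groups came from titles and treatment labels. Replicates of 1 group differed by more than sampling noise, with a chi-square per degree of freedom of 3.59 to 80.7 over 21 pairs. The members, lists and tests were chosen with earlier results of these data known.

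From the 7 lists, genes were named by rule as the up to 4 with the largest change per list and comparison among called genes past 0.5 in absolute log2 fold change and at or above 0 in mean log2 CPM. Like genes were ranked by Pearson r among genes at or above 2 in mean log2 CPM. Alternatives were DESeq2 1.42.0, RLE size factors, no filter, a CPM filter, a replicate block, the compared groups alone, a fold-change threshold and leaving out each library. RefSeq promoters held no entry for Mixl1. Scripts were tested on simulated data.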

Additional observations from a re-analysis of the deposited data

Results flagged for a closer look

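The change of Lef1 with loss of Trim71 was smaller in Experiment 2 than in Experiment 1. The test of the difference gave 2.48 on the log2 scale (SE 0.44, FDR 4.52e-04, edgeR quasi-likelihood over all 21 libraries). The change of Lef1 with loss of Ago2 also differed between the experiments, by 1.21 (SE 0.29, FDR 0.0215), where the second experiment's libraries are those labelled Ago2KO_empty. The control groups of these contrasts held Lef1 at 5.17 ± 0.197 CPM in W and 0.391 ± 0.0716 CPM in T6B_MUT (SD, n = 3), and the part of this level in the differences was not tested.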

How the results depend on the processing

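Requiring an absolute log2 fold change of 1 or more left fewer calls, by its construction. The counts of the genes described fell to 2 in Trim71KO against W, 1 in Ago2KO against W, 2 in Trim71KO against Ago2KO, 0 in T6B_WT, 1 in Trim71KO_empty and 0 in Ago2KO_empty against T6B_MUT, and 2 between both edited groups of Experiment 2. Over all genes they fell, in the same order, to 1108, 340, 1228, 472, 1008, 933 and 1271, and to 535, 205 and 271 for the Trim71, Ago2 and T6B differences of effects. In T6B_WT against T6B_MUT the count of 1 became 2 with no filter, 2 with a CPM over 1 in 3 libraries, and 3 (5632 of all genes against 3437) with the 2 groups fitted alone. The CPM filter gave 3 in place of 5 between both edited groups of Experiment 2, as it removed genes, and 2 in place of 1 for the Ago2 difference. The cause of the other changes was not tested.

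Leaving out 1 library at a time gave 3 to 6 called genes in Trim71KO against W (3 without W replicate 2 or Trim71KO replicate 1), 2 to 4 in Ago2KO against W (2 without Ago2KO replicate 2), 0 to 2 in T6B_WT against T6B_MUT, 0 to 3 in Ago2KO_empty against T6B_MUT, and 0 to 1 for the Ago2 and T6B differences. Over all genes the ranges were 2045 to 2497 in T6B_WT, 3894 to 8083 in Ago2KO_empty, 269 to 1634 for the Ago2 difference (473 with all libraries) and 500 to 618 for the T6B difference. The signs of 12 uncalled values turned. Mixl1 ran from −0.12 to 0.15 in Trim71KO against W and from −0.16 to 0.10 against Ago2KO, where Eomes ran from −0.11 to 0.023. Nkd1 ran from −0.17 to 0.065 in Ago2KO and from −0.0033 to 0.24 in T6B_WT, and Wnt3 from −0.71 to 0.036 in Trim71KO_empty. For the differences, Sp5 ran from −0.13 to 0.85 (Trim71) and −0.18 to 0.41 (T6B), Tcf7 from −0.053 to 0.31 (Ago2), Eomes from −0.058 to 0.10 (Ago2) and −0.24 to 0.027 (T6B), and Wnt3 from −0.19 to 0.68 (T6B).

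The calls of Dkk1, Axin2 and Lef1 in Trim71KO, of Dkk1 and Axin2 in Ago2KO, and of Dkk1, Axin2 and Eomes in Trim71KO_empty held in each fit run that kept the gene, apart from the fold-change threshold, which Axin2 and Eomes did not reach. Same-numbered replicates had a mean r of 0.04 in Experiment 1, against −0.02 for other pairs, and of 0.01 in Experiment 2, against −0.004. In Experiment 1, 4 of 9 same-numbered pairs and 5 of 18 others were over 0.1. So few pairs cannot exclude a shared deviation. The numbers were not treated as pairs in the main fits. With the replicate block, Tcf7 in Trim71KO was at −0.25 (adjusted p 0.0563, edgeR quasi-likelihood), 4 genes in place of 5 were called there, 6886 of all genes were called in place of 6906, and no other call of the 9 genes changed. Counts of a few reads per library limit Wnt3, Dkk1, Lef1 and Sp5.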
